A study of Homo sapiens with 8 samples.

Results

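The 10 genes described here encode subunits of SWI/SNF (also called BAF) chromatin remodelling complexes, and they were followed across 4 groups of human colorectal cancer cells: the ATPases SMARCA2 and SMARCA4, the core subunits SMARCB1, SMARCC1 and SMARCC2, the SMARCD1, SMARCD2 and SMARCD3 family, and the DNA-binding subunits ARID1A and ARID1B. They were taken by symbol from deposited RNA sequencing tables that list 40693 gene symbols, and all 10 were found, each in 1 row. The set was chosen by family membership with earlier results of these data known. Among them was the fall of SMARCD2 in cells with a hairpin RNA against FOXA2, so that fall is described and carries no test. Where a symbol has several rows the rule takes the one with the highest summed count, which no member needed.

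The data hold 8 libraries of total RNA. SW480 and SW620 are established lines from a primary colorectal tumour and a lymph node metastasis of 1 donor, labelled Dukes' type B and Dukes' type C, and each has 1 untreated library. The other 6 libraries are SW620 cells carrying a lentiviral, U6-driven hairpin in a vector that also holds puromycin resistance and mCherry, kept as stable puromycin-selected populations: 3 with a hairpin against FOXA2 (shFOXA2) and 3 with a control hairpin (shNC). The untreated lines received no vector. The titles of the shFOXA2 libraries point to the first of 2 FOXA2 hairpins named in the labels, so effects of lower FOXA2 and effects of this hairpin on other transcripts cannot be told apart in these samples. Separate cultures behind the 3 libraries of a group are not stated, so p-values measure only the spread between these samples, which may be technical.

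SWI/SNF complexes use the energy of ATP to slide or eject nucleosomes at promoters and enhancers. Each complex holds 1 ATPase, either SMARCA4 (BRG1) or SMARCA2 (BRM). In the canonical and PBAF forms it joins a core of SMARCB1 (SNF5), a SMARCC dimer (BAF155, BAF170) and 1 SMARCD protein (BAF60A, BAF60B or BAF60C), and the canonical form adds ARID1A or ARID1B. The ncBAF form lacks SMARCB1. Several positions can thus be filled by 1 of a set of paralogues, and loss of ARID1A, SMARCA4 or SMARCB1 is known in human cancers.

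The target sequences of the hairpins are shown because the target of hairpin 1 shares bases with the 3′ untranslated region (UTR) of 2 of the genes described. They read 5′ to 3′, and the capitals mark positions 11 to 20 of the target, counted from its 5′ end, the stretch that was searched.
Hairpin 1 against FOXA2: gaacggcatgAACACGTACAt
Hairpin 2 against FOXA2: gcaagggagaAGAAATCCATa
Control hairpin: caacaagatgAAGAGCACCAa
The guide strand expected from hairpin 1 is the reverse complement of its target, with bases 2 to 8, the seed, in capitals.
Hairpin 1 guide: aUGUACGUguucaugccguuc
That seed pairs with target positions 14 to 20.

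From each target 4 overlapping 7-base windows (positions 11 to 17, 12 to 18, 13 to 19 and 14 to 20) were searched in the sense strand of GENCODE v29 protein-coding transcripts (GRCh38), which allows for a guide that starts at neighbouring positions. The windows at positions 11 to 17 and 12 to 18 of hairpin 1 had been picked out from these data in a ranking of all 7-base sequences, so the matches are descriptions. Of the 10 genes, SMARCD2 and SMARCB1 hold a hairpin 1 window in an annotated 3′ UTR, against 7.54% of 19083 genes searched. The matching stretches are shown at the length of the target, with the bases shared without a break in capitals.
SMARCD2, chr17:63832854-63832874, minus strand, exon 13 of 13: tggggccgcagACACGTAggc
SMARCB1, chr22:23837777-23837797, plus strand, exon 9 of 9: gcggcggctccACACGTACAc
The SMARCD2 stretch is the single window at positions 12 to 18, present in the 3′ UTR of 4 of 4 annotated protein-coding transcripts, and 2.60% of the genes searched hold that window. It pairs with bases 4 to 10 of the guide as drawn, so it covers the marked seed only in part. The SMARCB1 stretch runs over 9 bases and takes in 3 of the 4 windows, the one that pairs with the whole seed included, but it lies only in 1 of 4 annotated transcripts, the principal one, whose 3′ UTR has 3828 bases. That transcript is 5210 bases long, whereas the deposited tables list 2481 bases for SMARCB1, so the authors' gene model cannot hold all of it.

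In coding sequence, hairpin 1 windows lie in SMARCA4 (positions 13 to 19), SMARCC1 (12 to 18) and ARID1B (11 to 17 and 12 to 18), against 7.99% of genes. SMARCA2 holds the window at 11 to 17 in the 5′ UTR of 1 short transcript. The annotated transcripts of SMARCD1, SMARCD3, SMARCC2 and ARID1A hold none of these 4 windows. Windows of the other targets are more common: 31.7% of genes hold one of hairpin 2 and 28.9% one of the control hairpin in a 3′ UTR, and these include SMARCA2 and SMARCB1 for hairpin 2 and SMARCB1 and ARID1B for the control. Whether any hairpin acted on these transcripts was not tested.

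FOXA2, the gene the hairpin aims at, checks the labels. It stood at 1.69 RPKM (the deposited unit, counts scaled to listed gene length and to the library total) in SW480 and 31.6 in SW620. It read 19.8, 18.9 and 20.2 RPKM in shNC replicates 1 to 3, and 11.5, 11.1 and 8.52 in shFOXA2 replicates 1 to 3. The groups did not overlap, and the edgeR quasi-likelihood test gave -0.91 on the log2 scale (adjusted p = 6.88e-10).

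SMARCD2 (ENSG00000108604.11, chromosome 17 from 63832081 to 63843065 on GRCh38, minus strand) encodes BAF60B, 1 of the 3 interchangeable SMARCD subunits, best known for its part in granulocyte development. Its level was 33.1, 31.2 and 31.1 RPKM in shNC replicates 1 to 3 and 9.02, 8.24 and 9.18 in shFOXA2 replicates 1 to 3. The groups lay far apart, with every shFOXA2 library under 10 RPKM and every shNC library above 30. Mean levels were 31.8 ± 1.15 RPKM (SD, n = 3) and 8.81 ± 0.50 (n = 3). On TMM-scaled counts the fitted level was 3.57-fold lower in shFOXA2, a log2 fold change of -1.83 (SE 0.06). That change stood at position 15 from the lowest of the 16100 genes fitted. These values are descriptions, since SMARCD2 was chosen for this fall. Leaving out any 1 library gave log2 fold changes from -1.87 to -1.80. Untreated SW480 and SW620, at 31.3 and 26.8 RPKM, stood near the shNC level.

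SMARCD1, which encodes BAF60A, did not pass the test. Its shNC libraries gave 17.9, 17.1 and 18.004 RPKM and its shFOXA2 libraries 17.7, 18.2 and 17.9, so the groups overlapped. The log2 fold change was 0.03 (95% interval -0.07 to 0.13, adjusted p = 0.650). SMARCD3, which encodes BAF60C and is known from heart and muscle, was the lowest of the 10 genes in both hairpin groups. It gave 0.927, 0.803 and 1.11 RPKM in shNC and 1.34, 0.900 and 1.11 in shFOXA2, from 35 to 84 counts a library. The groups overlapped, and the log2 fold change of 0.28 had a wide interval (-0.10 to 0.65, adjusted p = 0.2504). SMARCD3 shares 64 annotated exon bases with CHPF2 on the opposite strand, which had 12505 counts over the 8 libraries beside 2855 for SMARCD3, so its reads are uncertain if strand was not used in counting.

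The makeup of the SMARCD family therefore differed between the groups, as a description that rests on SMARCD2. Per unit length, SMARCD2 made up 63.1% ± 0.97 (SD, n = 3) of summed SMARCD RPKM in shNC and 31.6% ± 1.28 (n = 3) in shFOXA2. SMARCD1 made up 35.1% ± 0.70 in shNC and 64.4% ± 1.90 in shFOXA2. The family sum was 50.4 ± 1.47 RPKM in shNC and 27.9 ± 0.47 in shFOXA2. SMARCD2 was the leading SMARCD transcript in both untreated lines as well, with 54.5% in SW480 and 60.5% in SW620.

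**Figure D1:**
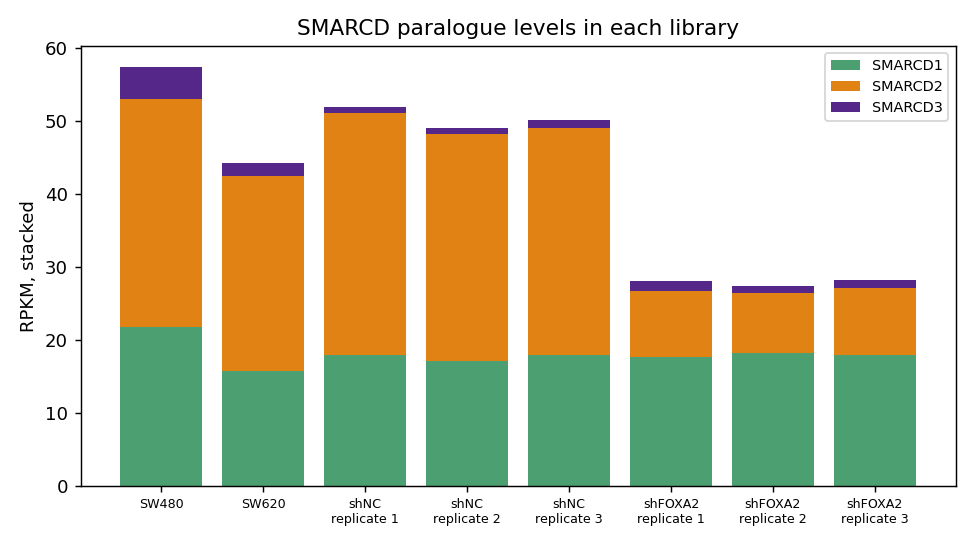
Stacked RPKM (vertical axis) of SMARCD1, SMARCD2 and SMARCD3 in each of the 8 libraries (horizontal axis). The SMARCD2 segment is 8.24 to 9.18 RPKM in the 3 shFOXA2 libraries and at least 26.8 in the other 5, while the SMARCD1 segment stays between 15.8 and 21.8 in all 8.

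Among the other 9 genes, 2 fell in shFOXA2 (SMARCB1 and SMARCC1), 0 rose and 7 did not pass an adjusted p of 0.05 by edgeR. Over all genes tested, 39.0% passed, 19.8% as lower and 19.2% as higher, so the 22.2% of these genes that were lower is close to the background. At an unadjusted p under 0.05 the counts were also 2 lower and 0 higher, and DESeq2 and limma-voom gave 2 and 0. The median log2 fold change of the 9 genes was -0.03, beside 0.01 over all genes. All 10 genes passed the filter on low counts.

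SMARCB1 (ENSG00000099956.13, chromosome 22 from 23786931 to 23838008, plus strand) encodes the core subunit that contacts the nucleosome's acidic face and is lost in rhabdoid tumours. It read 37.8, 39.1 and 35.5 RPKM in shNC replicates 1 to 3 and 25.9, 23.5 and 25.1 in shFOXA2 replicates 1 to 3. The groups did not overlap, with the highest shFOXA2 library well under the lowest shNC library. The fitted fall was 1.49-fold, a log2 fold change of -0.58 (SE 0.06, 95% interval -0.69 to -0.46, adjusted p = 1.64e-11, edgeR). Without any 1 library the log2 fold change stayed between -0.62 and -0.55. Untreated SW480 and SW620 had 20.7 and 29.4 RPKM, both below every shNC library, and the vector-carrying and untreated cells were not compared by a test. In GENCODE v29, SMARCB1 shares 2923 annotated exon bases with DERL3 on the opposite strand, which had 564 counts over the 8 libraries beside 16117 for SMARCB1. That overlap is longer than the 2481 bases listed for SMARCB1, so it cannot all lie in the deposited gene model.

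SMARCC1 encodes BAF155, a scaffold on which the core is built. It read 32.2, 32.8 and 31.4 RPKM in shNC and 28.4, 28.003 and 28.5 in shFOXA2, so the groups did not overlap, although they were close. Its fall was small, with a log2 fold change of -0.17 (SE 0.04, 95% interval -0.26 to -0.08, adjusted p = 0.00121), below the median absolute change of 0.21 over all genes tested. Its paralogue SMARCC2, encoding BAF170, ranged from 11.8 to 13.03 RPKM over the 6 hairpin libraries with overlapping groups. The log2 fold change was -0.03 (95% interval -0.13 to 0.07, adjusted p = 0.650). SMARCC2 shares 514 exon bases with MYL6 on the opposite strand, a gene with 85312 counts over the 8 libraries, so its reads are uncertain if strand was not used in counting.

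Neither ATPase passed the test. SMARCA4 ranged from 13.6 to 14.8 RPKM over the 6 hairpin libraries, with a log2 fold change of -0.02 (95% interval -0.12 to 0.07, adjusted p = 0.721). SMARCA2 ranged from 4.92 to 5.62 RPKM, with 0.05 (95% interval -0.10 to 0.20, adjusted p = 0.643). In each case the groups overlapped, and neither interval reached beyond 0.20 on the log2 scale.

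ARID1A and ARID1B carry an AT-rich interaction domain that binds DNA, and a canonical complex holds either of them. ARID1A read 13.1, 14.3 and 13.5 RPKM in shNC and 13.01, 12.5 and 12.9 in shFOXA2. Its groups did not overlap, as for 48.7% of all genes (24.5% with shFOXA2 lower), yet it did not pass (log2 fold change -0.07, 95% interval -0.17 to 0.02, adjusted p = 0.209). ARID1B ranged from 3.42 to 3.97 RPKM with overlapping groups (log2 fold change -0.10, 95% interval -0.22 to 0.02, adjusted p = 0.189).

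**Figure D2:**
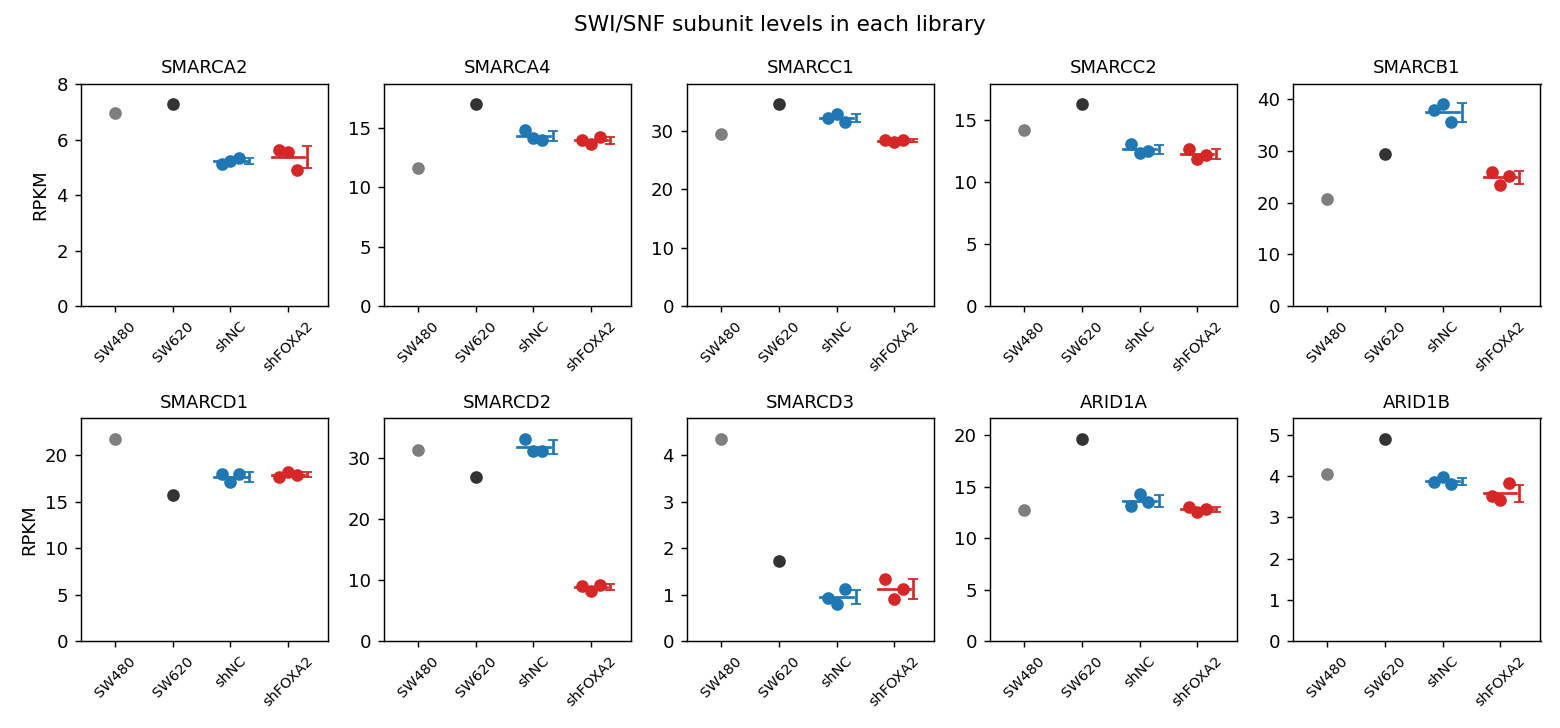
RPKM of each of the 10 genes (vertical axes, starting at 0) in the 4 groups; points are libraries, and for the 3-library groups the line is the mean and the bar the SD. SMARCD2 and SMARCB1 show separated shNC and shFOXA2 points, at 31.8 against 8.81 and 37.5 against 24.9 RPKM on average, and SMARCC1 shows a narrow gap.

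Ordered by RPKM in shNC, the genes ran SMARCB1 (37.5), SMARCC1 (32.1), SMARCD2 (31.8), SMARCD1 (17.7), SMARCA4 (14.3), ARID1A (13.6), SMARCC2 (12.6), SMARCA2 (5.23), ARID1B (3.88) and SMARCD3 (0.946). Neighbours whose libraries overlapped were SMARCC1 with SMARCD2 and SMARCA4 with ARID1A. In shFOXA2, SMARCC1 (28.3) stood first and SMARCB1 (24.9) next, and SMARCD2 had moved from the third place to the seventh, between SMARCC2 (12.2) and SMARCA2 (5.37). There ARID1A and SMARCC2 were the neighbours that overlapped. This order, and the shares of paralogues in RPKM, rest on the listed gene lengths, which can differ from transcript lengths. SMARCB1 is listed at 2481 bases and its principal transcript has 5210, while SMARCD2 is listed at 3731 and its principal transcript has 2716.

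The balance between paralogues outside SMARCD2 was tested as a log2 ratio of RPKM in each hairpin library, with a two-sided exact permutation test over 3 against 3 libraries, which cannot give a p below 0.1. SMARCC1 to SMARCC2 went from 1.35 ± 0.05 (SD, n = 3) in shNC to 1.21 ± 0.04 (n = 3) in shFOXA2, a difference of -0.14 with groups that did not overlap (exact permutation p = 0.1, adjusted over the 4 ratios 0.4). SMARCA4 to SMARCA2 was 1.45 ± 0.07 and 1.38 ± 0.13 (exact permutation p = 0.6). ARID1A to ARID1B was 1.81 ± 0.04 and 1.84 ± 0.08 (exact permutation p = 0.6). SMARCD1 to SMARCD3 was 4.24 ± 0.20 and 4.02 ± 0.31 (exact permutation p = 0.4). The adjusted p of these last ratios was 0.6. SMARCA4 thus made up 72.2% ± 1.83 (n = 3) of ATPase RPKM in shFOXA2 and 73.2% ± 1.00 (n = 3) in shNC.

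A list of 21 further subunits of the canonical, PBAF and ncBAF forms was read, and 19 could be tested; the neuronal subunits ACTL6B and DPF3 were too low. Of these, 3 rose, 4 fell and 12 did not pass, with a median log2 fold change of -0.09. The 36.8% that passed is near the 39.0% over all genes. BCL7A, a small accessory subunit, fell most, with a log2 fold change of -1.01 (SE 0.13). BCL11A (-0.71), a zinc finger factor counted among BAF subunits, fell too. So did the double PHD finger proteins PHF10 (-0.32), of PBAF, and DPF2 (-0.24), of canonical BAF. ACTB, the actin that also forms part of the complex, rose by 0.71 on the log2 scale (SE 0.04), and SS18, the subunit fused in synovial sarcoma, rose by 0.26. PBRM1, the bromodomain subunit of PBAF, rose by 0.14 (edgeR adjusted p = 0.0280). That last call did not hold when shFOXA2 replicate 1 was left out (edgeR adjusted p = 0.0680), nor on leaving out shFOXA2 replicate 3 (0.159) or shNC replicate 3 (0.208), nor with DESeq2 (0.102). SS18 did not pass without shNC replicate 3 (edgeR adjusted p = 0.0576), and leaving that library out left 1 subunit of the list that rose in place of 3. The ncBAF subunits BRD9 (-0.09) and GLTSCR1 (0.11) did not pass. Of the 7 subunits that passed, BCL11A, PHF10 and PBRM1 hold a hairpin 1 window in an annotated 3′ UTR, and PBRM1 is one that rose. Of the 12 that did not pass, 10 could be searched and 0 hold one, beside 7.54% of all genes searched. PHF10 and PBRM1 hold only the window at positions 11 to 17, which was picked from these data. The counts of subunits with a window are therefore a description, are small and carry no test.

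**Figure D3:**
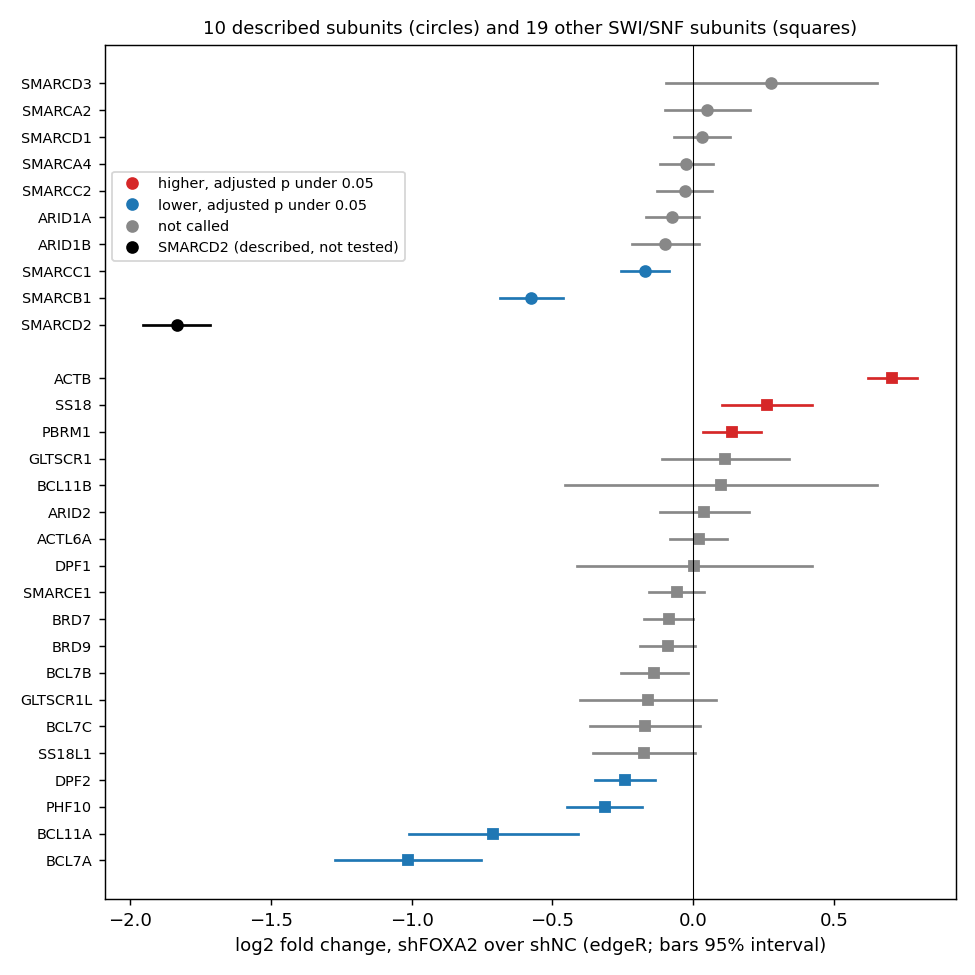
Log2 fold change of shFOXA2 over shNC with its 95% interval (horizontal axis) for the 10 described genes (circles) and 19 other subunits (squares), coloured by call. SMARCD2, at -1.83, lies below all other genes plotted, which run from -1.01 (BCL7A) to 0.71 (ACTB). SMARCD2 was chosen for its fall, so its value and interval are a description and not a test.

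Other chromatin complexes were read from lists in the same way. Of 24 ISWI, CHD and NuRD genes, 7 rose and 3 fell, and the smallest p was that of the histone chaperone RBBP4 (log2 fold change -1.24), while the remodellers CHD1 (0.54) and BAZ2A (0.51) rose. Of 16 INO80, SRCAP and TIP60 genes, 1 rose and 4 fell, among them RUVBL2 (-0.32), YEATS4 (-0.52) and INO80E (-0.28). Of 13 Polycomb genes, whose complexes are known to oppose SWI/SNF at many promoters, 3 rose and 4 fell, among them BMI1 (0.80), JARID2 (0.61) and PHF19 (-0.40). Medians were 0.01, -0.08 and -0.02. The shares that passed were 41.7%, 31.2% and 53.8%, beside 39.0% over all genes, 19.2% as higher and 19.8% as lower.

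Among genes tested that have a 3′ UTR, 1038 hold a hairpin 1 window there, and 32.7% of them were called lower and 19.3% higher in shFOXA2, with a median log2 fold change of -0.04. Of the 11396 without one, 20.5% were lower and 22.3% higher, with a median of 0.02. Among the same genes, 1087 hold a hairpin 1 window in coding sequence, and 29.6% of them were lower and 21.1% higher. Of the 11347 without one there, 20.7% were lower and 22.1% higher, so the excess was not particular to the 3′ UTR. With a hairpin 2 window in the 3′ UTR the shares were 18.8% lower and 26.8% higher, and with a control window 20.4% and 25.1%. Genes without those windows were lower more often and higher less often. Those windows are far more common, so they are not a like-for-like comparison. These shares are a description with no test, since 2 of the 4 hairpin 1 windows were picked from these data. SMARCB1 is among the 339 genes with a hairpin 1 window in the 3′ UTR that were called lower. The 339 also count SMARCD2, which was chosen for its fall.

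The 5 genes with the pattern most like SMARCD2 were found by Pearson's r of log2 CPM (counts scaled to the library total) over all 8 libraries among 9192 other genes with a mean of at least 4. They were TXNRD1 (0.996), NACC2 (0.996), TIMELESS (0.995), CXXC5 (0.994) and B3GALT6 (0.994). The 8 points fall into shFOXA2 and the rest and share library depth, so this describes the same split. TXNRD1 and B3GALT6 hold a hairpin 1 window in the 3′ UTR, and NACC2, TIMELESS and CXXC5 hold none, beside 7.54% of all genes searched. The TXNRD1 windows, at positions 11 to 17 and 12 to 18, are those picked from these data. The 5 genes were chosen for their likeness to SMARCD2, so these matches are a description with no test. Among the other genes described, SMARCC1 had 0.870, ARID1B 0.648, SMARCB1 0.602 and SMARCC2 0.530, and ARID1A, SMARCA2, SMARCD1 and SMARCA4 had 0.416 to 0.156; SMARCD3 was below the minimum mean level.

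Untreated SW620 and SW480 were set side by side without a test, since each line has 1 library, and the 95% interval in brackets after each fold is exact and covers counting error only. SMARCD3 was the 1 gene of 10 past 2-fold, with 1636 counts in SW480 and 855 in SW620, and it was 2.63-fold higher in SW480 (2.42 to 2.86). Past 2-fold lay 16.8% of 21343 genes, 8.85% as higher in SW480, so 1 in 10 is near the background. Its paralogues were higher in SW480 too, SMARCD1 1.43-fold (1.39 to 1.48) and SMARCD2 1.21-fold (1.175 to 1.246). ARID1A was 1.498-fold higher in SW620 (1.46 to 1.54), SMARCA4 1.41-fold (1.38 to 1.45) and SMARCB1 1.37-fold (1.32 to 1.43). ARID1B (1.17-fold), SMARCC1 (1.14-fold) and SMARCC2 (1.11-fold) were slightly higher in SW620, and SMARCA2 had a ratio of 1.01 (0.970 to 1.06). The SMARCA4 share of ATPase RPKM was 62.6% in SW480 and 69.99% in SW620. The median log2 ratio of the 10 genes was 0.17, beside 0.02 over all genes. Among the other subunits, 2 of 19 were past 2-fold, both higher in SW620: BRD7, of PBAF, 3.26-fold (3.18 to 3.35) and BCL11B, a low gene with 70 and 439 counts, 4.57-fold (3.54 to 5.97).

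**Figure D4:**
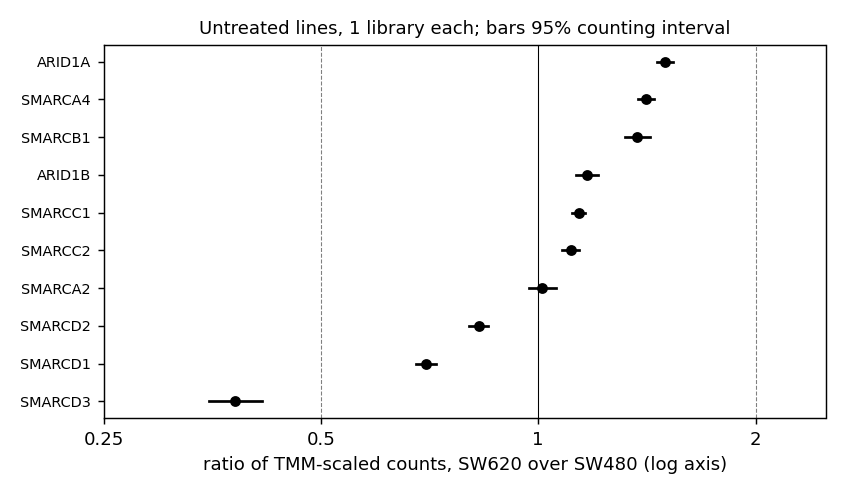
Ratio of TMM-scaled counts of untreated SW620 over SW480 (log axis) for the 10 genes, with 95% counting intervals; dashed lines mark 2-fold. SMARCD3 alone lies beyond a dashed line, and ARID1A is the highest at 1.498.

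Total counts were 72323506 in SW480, 95935348 in SW620 and 7478411 to 13076566 in the hairpin libraries. Of 10 colorectal epithelium markers all but CDX1 were detected in every group, at 8187 to 8563 CPM summed in shFOXA2 and 8264 to 8756 in shNC. Single markers did change: of the 9 tested by edgeR, 4 were called higher in shFOXA2 and 2 lower. That is 66.7%, beside 39.0% of all genes. Leukocyte markers summed to 34.4 to 42.6 CPM in shFOXA2 and 23.2 to 29.3 in shNC, with 3 of 12 at 0 in each group, CD3E and MS4A1 among them. Of the 7 tested by edgeR, 3 were called higher in shFOXA2 and 0 lower, beside 19.2% and 19.8% of all genes. The 3 were GZMB (log2 fold change 3.30, from a mean of 0.157 CPM in shNC), CD4 (0.92) and LYZ (0.85). Among the 4 not called, PTPRC went the other way (log2 fold change -0.23, edgeR adjusted p = 0.804). It had 42 counts in shNC replicate 1 and 9 to 17 in the other hairpin libraries. The part of leukocyte transcripts in the results was not tested. Liver plasma protein markers summed to 191 CPM in shFOXA2 replicate 1 and 26.6 to 29.02 in the other 5 hairpin libraries, with TTR and FGB at 0 in both groups, and fibroblast and endothelial markers to 46.3 and 14.1 to 22.0, with COL1A2 and COL3A1 at 0. Of the 5 liver markers tested, 1 was called higher and 1 lower, and of the 3 fibroblast and endothelial markers tested, 2 higher and 0 lower. APOB had 1882 counts in shFOXA2 replicate 1 and 41 to 65 in the other hairpin libraries. Without that library SMARCD2 was at -1.85, SMARCB1 at -0.61 and SMARCC1 at -0.17 on the log2 scale, as large as with it. In bulk RNA, fewer cells of a kind and less RNA per cell cannot be told apart.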

How the data were processed

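RNA sequencing tables, 1 per library, were used for 8 libraries: SW480 (1), SW620 (1), shFOXA2 (3) and shNC (3). Libraries were made with a directional kit, per the labels' protocols. The deposited tables give raw counts, a gene length and RPKM for 42713 genes, and the deposited RPKM equals count over listed length and table total for 100% of genes above 20 counts (tolerance 1e-04). HOMER and hg19 are named in the submitters' processing notes without a role. No aligner, annotation or strand setting is given in the sources used here. The 10 genes and all lists were chosen with earlier results of these data known.

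The hairpin groups were compared with the edgeR 4.0.16 quasi-likelihood test (R 4.3.3, robust, TMM, default filter, Benjamini-Hochberg over 16100 genes at 0.05); the SE is the log2 fold change over the square root of F. Intervals use its t quantile. Replicates differed by more than counting noise (chi-square over degrees of freedom 1.66 to 4.61). In both groups replicate 1 stood apart: pairs with it gave 3.98 to 4.61. Replicates 2 and 3 gave 1.75 in shNC and 1.66 in shFOXA2. Untreated lines were compared as ratios of TMM-scaled counts, with 1 CPM added and at least 20 counts in the higher library for the count past 2-fold. Total counts per library limit precision: 3 counts equal 0.0313 CPM in the deepest and 0.401 CPM in the shallowest. Named were the 10 genes, FOXA2, every other SWI/SNF subunit that passed and the 5 genes most like SMARCD2. From each list of other chromatin complexes and from the leukocyte markers, up to 3 genes were named by p. BRD9, GLTSCR1, BRD7, BCL11B and PTPRC were named after their values were seen. Gene positions, UTRs and windows come from GENCODE v29 (GRCh38), another build than the notes name. The fit was tested on simulated data. Alternatives covered scaling, filter, test (DESeq2 1.42.0, limma-voom in limma 3.58.1), threshold, repeated symbols, replicate block and each library left out. Site searches and plots used Python 3.11.15, numpy 2.4.6, pandas 2.3.3 and matplotlib 3.10.9.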

Additional observations from a re-analysis of the deposited data

How the results depend on the processing

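SMARCB1 and SMARCC1 stayed lower, and 0 of the 9 genes other than SMARCD2 rose, under every alternative run for scaling, filter, test, threshold, repeated symbols, replicate block and left-out library. The 7 others stayed uncalled. Over all genes, DESeq2 called 4901, limma-voom 6248 and a threshold of 0.01 4725, against 6280. Same-numbered hairpin libraries showed no visible shared deviation (correlations -0.05 to 0.01), and other pairs ran from -0.05 to 0.05. These values are centred on means of 3 libraries, so they cannot show whether libraries shared a culture or batch. With the replicate block 6139 genes were called and no call among the 10 genes changed. SMARCA4 changed sign without shNC replicate 1 (0.00040 on the log2 scale; -0.0525 to 0.00040 with 1 library left out), and so did the difference in the ARID1A to ARID1B ratio without shFOXA2 replicate 1 (-0.00027; -0.00027 to 0.0692 with 1 library left out), both near 0. With no filter on low counts 7 further subunits were lower in place of 4, and the count that rose was 1 to 3 with 1 library left out; the cause was not tested. Between the untreated lines, 6165 genes were past 2-fold with 0.1 CPM added and 7302 past 1.5-fold, against 3595, while 1 of the 10 genes passed each time. SMARCD3, at 35 to 84 counts in the hairpin libraries, is the gene whose interval depth widens most.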
